A study of Mus musculus with 47 samples.

Results

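The libraries described here were taken at the end of 15 h of exposure to 4-thiouridine (4sU), at time 0 of the catabolic (decay) assay, the point at which the transcriptome carried the most label before the 4sU was removed. They are 6 of the 47 libraries of the series and were chosen by assay and time alone: 3 of undifferentiated P19 cells (D0, replicates 25, 26 and 27) and 3 of P19 cells at day 6 of neuronal differentiation (D6, replicates 7, 8 and 9). P19 is an established mouse embryonal carcinoma line, labeled wild type in both states. D0 cells grew in serum-containing medium, and D6 cells had been kept in NDiff 227 medium with 500 nM retinoic acid. By the study's methods D0 cells received 20 µM 4sU and D6 cells 500 µM, with fresh 4sU 3 h before the end in both, so the dose and the state cannot be told apart (the same methods also give 13 h for this point). The study used these libraries as the ceiling to which its other time points were scaled. The question asked here is which transcripts remained under-labeled or over-labeled relative to the rest at that ceiling, in each state.

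In SLAM-seq, 4sU enters newly made RNA in place of uridine, and an alkylation of the thiol makes reverse transcriptase read it as cytidine, so that newly made RNA shows T-to-C conversions. Under continuous labeling the share of labeled molecules of a transcript approaches a plateau as old molecules are degraded, early for transcripts with a fast turnover and late for long-lived ones. Long-lived messengers of growing cells include those of ribosomal proteins and of the respiratory chain, whereas messengers of transcription factors and cell cycle regulators tend to be short-lived. Each library was made from the 3′ ends of polyadenylated RNA, and the files hold, per 3′ UTR, the covered T positions and the conversions found on them.

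For each RefSeq messenger transcript the conversions over covered T positions were divided by the same ratio pooled over the whole library. This relative rate is 1 for a transcript labeled like the library as a whole. Of 28190 transcripts, 10771 of 6819 genes averaged 1000 or more covered T positions in each state and were tested. A further set was chosen after seeing the data: 1210 genes, with 1 transcript each, that averaged 10000 or more covered T positions in each state and a conversion rate of at most 0.5% in the libraries without 4sU. These are called well covered genes here.

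The 6 libraries held 3138839 to 5415741 reads and 72251317 to 124174994 covered T positions. The pooled conversion rate was 1.39%, 1.49% and 1.38% in the D0 libraries (1.42% ± 0.0635, SD, n = 3) and 4.87%, 4.78% and 4.24% in the D6 libraries (4.63% ± 0.339, SD, n = 3), against 0.171% ± 0.0329 and 0.166% ± 0.0275 in libraries of the same states without 4sU. A conversion was seen in 27.3% to 27.6% of reads at D0 and in 56.5% to 61.5% at D6. After 9 h of uptake the pooled rate had been 1.24% at D0 and 3.60% at D6. In the libraries without 4sU, the summed CPM of the 8 pluripotency markers was 1924 to 3140 at D0 and 648 to 914 at D6, whereas the 10 neuronal markers summed to 933 to 1165 at D0 and 10442 to 11706 at D6. In these bulk libraries fewer cells of a type and less RNA per cell cannot be told apart.

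Repeat libraries differed by more than counting error in every range of coverage. Among D0 transcripts with 10000 to 30000 covered T positions the median coefficient of variation of the relative rate over the 3 libraries was 31.3%, where counting error alone gives 6.65%. At D6 the same values were 21.2% and 3.68%. Above 100000 covered T positions the variation was 10.1% at D0 and 4.82% at D6. Levels are therefore given below per library.

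In the well covered genes, 33 were under-labeled and 14 over-labeled at D0 (edgeR quasi-likelihood test, adjusted p under 0.05; 2.73% and 1.16% of 1210, together 3.88%), whereas at D6 4 were under-labeled (0.331%) and none over-labeled. The genes under-labeled at D6 included Wdr89, Rps14 and Tubb2b, and all 4 were also under-labeled at D0. The difference between the states itself passed the test for none of the 1210 genes, with 107 at an unadjusted p under 0.05, so a gene called in one state alone is not shown to differ between them, nor is it shown not to. At D6 128 genes had an unadjusted p under 0.05 and at D0 212. The D0 and D6 tests shared the same estimate of spread, although repeat libraries varied more at D0, as given above. The counts of calls at D0 and at D6 are therefore not on an equal footing. With the median rate of these genes as the reference in place of the pooled rate, the D0 calls became 20 under-labeled and 22 over-labeled. The D0 count of 33 fell to 18 without D0 replicate 26, to 17 without D6 replicate 8 and to 17 without D6 replicate 9, and the count of 14 to 8 without D0 replicate 25, to 8 without D0 replicate 26 and to 9 without D6 replicate 8. The difference was called for 2 genes without D0 replicate 25 (Actb and Cd24a, higher at D6) and at D6 1 gene was over-labeled without D0 replicate 25 and 1 without D0 replicate 27. The D6 count of 4 became 8 without D0 replicate 27 and 2 without any 1 of the D6 libraries. Of the 33 genes 10 were still called whichever of the 6 libraries was left out, among them Wdr89, Tubb2b, Gnas, Atp5j2, Rps9, Zfhx3, Mif, Cox7a2 and Ybx1, while Lamp1 and Arhgdia were lost in each case. Of the 14 genes Laptm4a and Syt11 held in each case, and of the 4 genes 2, with Wdr89 among them.

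**Figure D1:**
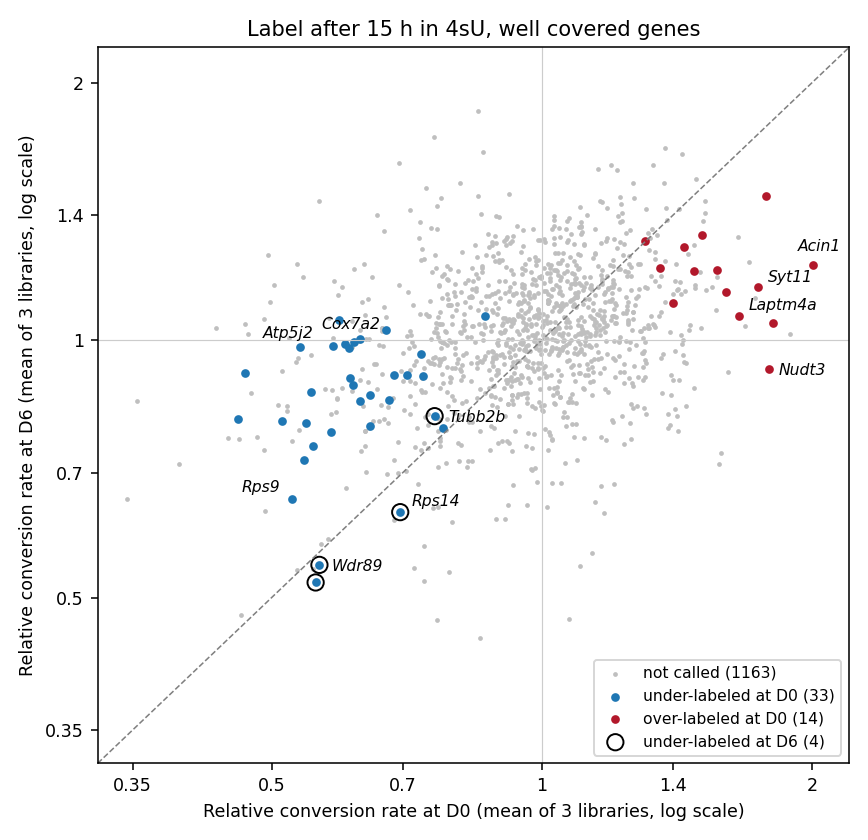
Mean relative conversion rate over 3 libraries at D0 (horizontal, log scale) against D6 (vertical, log scale) for the 1210 well covered genes. Colored points are the 33 genes under-labeled and the 14 over-labeled at D0, rings mark the 4 under-labeled at D6. Of the 33 genes, 29 lie below 1 on the vertical axis as well, and of the 14 genes, 13 lie above it.

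Wdr89, a WD repeat protein, was the most firmly under-labeled gene in both states (chr12:75630594-75632317, minus strand; mm10, 3′ UTR, as are all gene positions below). Its relative rate was 0.660, 0.487 and 0.549 at D0 and 0.577, 0.501 and 0.560 at D6, so that every library was well below 1 and the groups overlapped. The test gave a log2 deviation of −0.82 ± 0.10 at D0 (edgeR, adjusted p = 2.1e-04) and −0.87 ± 0.10 at D6 (adjusted p = 9.7e-05), with a difference of −0.05 ± 0.13 between the states. The interval carried 4897 CPM at D0 without 4sU. Whether reads of near-identical copies elsewhere were assigned to it, or to the ribosomal protein and tubulin genes below, was not tested, and these genes are uncertain in that respect.

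Rps14, of the small ribosomal subunit, stood at 0.572, 0.713 and 0.802 at D0 and 0.629, 0.636 and 0.623 at D6. Its D6 libraries lay close together inside the wider range of its D0 libraries. The D6 call of Rps14 was lost without any 1 of the D6 libraries, and over all transcripts tested it was not called at D6. Its D0 call was lost without D0 replicate 25 or 26 or D6 replicate 8. Tubb2b, a beta-tubulin of developing neurons, carried 841808 covered T positions per library at D6. Its relative rate was 0.764, 0.759 and 0.756 at D0 and 0.788, 0.846 and 0.811 at D6, a shallow deviation that repeated closely in every library (adjusted p = 0.00165 at D0 and 0.0215 at D6, edgeR). With reads carrying a conversion in place of conversions, its D0 deviation turned to 0.28 on the log2 scale. The D6 call of Tubb2b was lost without any 1 of the D6 libraries, and over all transcripts tested it was not called at D6.

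Ribosomal protein genes had low medians in both states. Of the 20 that were well covered (15 of the large and 5 of the small subunit), 4 were under-labeled at D0, Rpl34, Rps9 and Rps14 among them, 2 at D6, Rps14 among them, and none over-labeled, where 2.73% of the 1210 genes were under-labeled at D0 and 0.331% at D6. Over all transcripts tested, 2 of 44 ribosomal protein genes were under-labeled at D0 and none at D6, beside 0.186% and 0.0464% of those transcripts. In that set 1 large-subunit and 1 small-subunit gene were over-labeled at D0, as were 1.06% of the transcripts. The median relative rate of the large-subunit genes was 0.744 ± 0.0200 at D0 and 0.907 ± 0.0116 at D6 (mean ± SD of 3 library medians). The small-subunit genes had medians of 0.686 ± 0.115 and 0.629 ± 0.00694, beside 0.957 ± 0.00525 and 1.02 ± 0.00658 for all 1210 genes. All 3 D0 libraries were below 1 for 11 of the 15 and 4 of the 5, where 22.1% of all 1210 genes were. At D6 this held for 8 of the 15 and 4 of the 5, where 16.3% of all genes were. The full lists name 49 large-subunit and 33 small-subunit genes, of which 28 and 16 reached the lower coverage minimum, so most members were too lightly covered, or too often converted without 4sU, to enter these counts.

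Rps9, a core protein of the small subunit (chr7:3706829-3706897, plus strand), had a relative rate of 0.621, 0.513 and 0.445 at D0 and 0.565, 0.605 and 0.784 at D6. Its D0 deviation was −0.92 ± 0.15 (log2, edgeR adjusted p = 0.00234), and its D6 value of −0.62 ± 0.15 missed the threshold (adjusted p = 0.0860). Rpl34 stood at 0.337, 0.630 and 0.573 at D0 and 0.855, 0.794 and 0.764 at D6, so that its groups did not overlap, while the test of the difference was not passed (adjusted p = 0.556, edgeR). Rps20 was the lowest well covered small-subunit gene by its mean over the 6 libraries. Its relative rate was 0.228, 0.283 and 0.875 at D0 and 0.649, 0.524 and 0.256 at D6, so that its libraries disagreed widely in both states, and it was not called. At the other end, Rps27l and Rpl36al were the highest well covered members of their lists by their means over all 6 libraries. Rps27l stood at 1.11, 0.768 and 0.903 at D0 and 1.34, 0.971 and 0.623 at D6. Rpl36al stood at 0.957, 0.656 and 1.44 at D0 and 1.03, 0.692 and 1.67 at D6. Rpl4, which the study singled out, was close to the library average, at 0.872, 0.865 and 0.985 at D0 and 0.949, 0.940 and 0.975 at D6.

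Many ribosomal protein and elongation factor messengers begin with a terminal oligopyrimidine (TOP) tract, a run of C and T at the very start of the transcript that ties their translation to growth signals. The start sites of genes named here are given for 4 genes of the translation machinery and 4 of the respiratory chain, to compare their tracts. Each line shows 30 bases (RefSeq, GRCm38.p6, 5′ to 3′ on the strand of the gene) placed around the longest run of C and T, in capitals, that lies from 30 bases before to 30 after the annotated start, so the run need not be at the start itself. Counted from the start, the first base shown is at −22 for Rpl34, −26 for Rpl4, −17 for Rps9, −12 for Ndufb8 and −23 for Uqcrh. The lines of Atp5j2 and Cox7a2 begin at −30 and end before the start, and that of Eef2 begins at the start. Among other ribosomal protein and translation factor genes named here, the longest run was 9 bases in Rps27l, 5 in Eif5a and Rpl36al and 4 in Eef1b2.
Rpl34 (chr3:130730330-130730359, minus strand): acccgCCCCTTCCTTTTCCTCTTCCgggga
Rpl4 (chr9:64173361-64173390, plus strand): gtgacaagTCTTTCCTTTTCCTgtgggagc
Rps9 (chr7:3704024-3704053, plus strand): caaccgccttgTCTCTCTTTgtctcgggcc
Eef2 (chr10:81176631-81176660, plus strand): gttgacgtcagcggTCTCTTCCgccgcagc
Ndufb8 (chr19:44555425-44555454, minus strand): ccaccgtgacccgCTTTTgcgcatgtgcag
Uqcrh (chr4:116075064-116075093, minus strand): ggagtatgccgcaCTTCCggccaggtcgcc
Atp5j2 (chr5:145191542-145191571, minus strand): CCCTTCCCagcagcctttgcgcgcggctgg
Cox7a2 (chr9:79759854-79759883, minus strand): ggtaaggatagCTTCggaggtccggaggct
An uninterrupted run of 10 or more bases that are each C or T, searched on the strand of the gene from 30 bases before to 30 after the start, was present in 12 of 24 large-subunit genes tested, in 4 of 12 small-subunit genes and in 2 of 59 respiratory chain genes, beside 12.6% of 27025 promoters of the table. Of the genes under-labeled at D0, 4 of the 26 with a promoter in the table had such a run (15.4%), beside 14.4% of well covered genes and 3 of the 10 over-labeled at D0 (30%). The genes low in label at D0 thus held both start sites with a long tract and start sites without one.

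Among the other translation genes, Eef2, the elongation factor that moves the ribosome along the messenger, was under-labeled at D0. Its relative rate was 0.748, 0.808 and 0.769 at D0 and 0.755, 0.822 and 0.788 at D6, nearly the same in both states, with an adjusted p of 0.0278 at D0 and 0.119 at D6 (edgeR). Eif5a, which helps ribosomes through proline stretches, stood at 0.507, 0.594 and 0.539 at D0 and 0.806, 0.981 and 0.614 at D6 and was called at D0 (adjusted p = 0.0229). Of the 11 well covered elongation factors and other TOP genes, 1 was under-labeled at D0 (Eef2) and 1 over-labeled (Vim), where 2.73% and 1.16% of the 1210 genes were, and none was called at D6. By the mean over all 6 libraries the list ran from Eef1b2, at 0.777, 0.549 and 1.05 at D0 and 0.714, 0.574 and 0.549 at D6, to Vim, at 1.15, 1.60 and 1.17 at D0 and 1.17, 1.42 and 1.32 at D6. Its median was 0.873 ± 0.0763 at D0 and 1.02 ± 0.0983 at D6, which at D0 lies between the medians of the ribosomal proteins and of all 1210 genes.

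Nuclear genes of oxidative phosphorylation, which encode subunits of the respiratory chain and of the ATP synthase, had less label than the average at D0. Their median relative rate over 35 well covered genes was 0.731 ± 0.0572 at D0, with library medians of 0.766, 0.665 and 0.762, and 1.01 ± 0.0407 at D6, with library medians of 0.982, 1.05 and 0.986. Under-labeled at D0 were 4 of the 35 (Atp5j2, Cox7a2, Uqcrh and Ndufb8), and none was called at D6 or over-labeled in either state, where 2.73% of the 1210 genes were under-labeled at D0 and 0.331% at D6. The list names 75 genes, 71 of which reached the lower coverage minimum, and over all transcripts tested 2 of the 71 were under-labeled and 1 over-labeled at D0 (0.186% and 1.06% of transcripts). In 20 of the 35 all 3 D0 libraries were below 1, and in 7 all 3 D6 libraries, beside 22.1% and 16.3% of the 1210 genes. All 3 D6 libraries were above all 3 D0 libraries in 11 of the 35 and below them in none, where 12% and 3.97% of the 1210 genes were. The difference between the states was tested gene by gene only, and no gene passed.

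**Figure D2:**
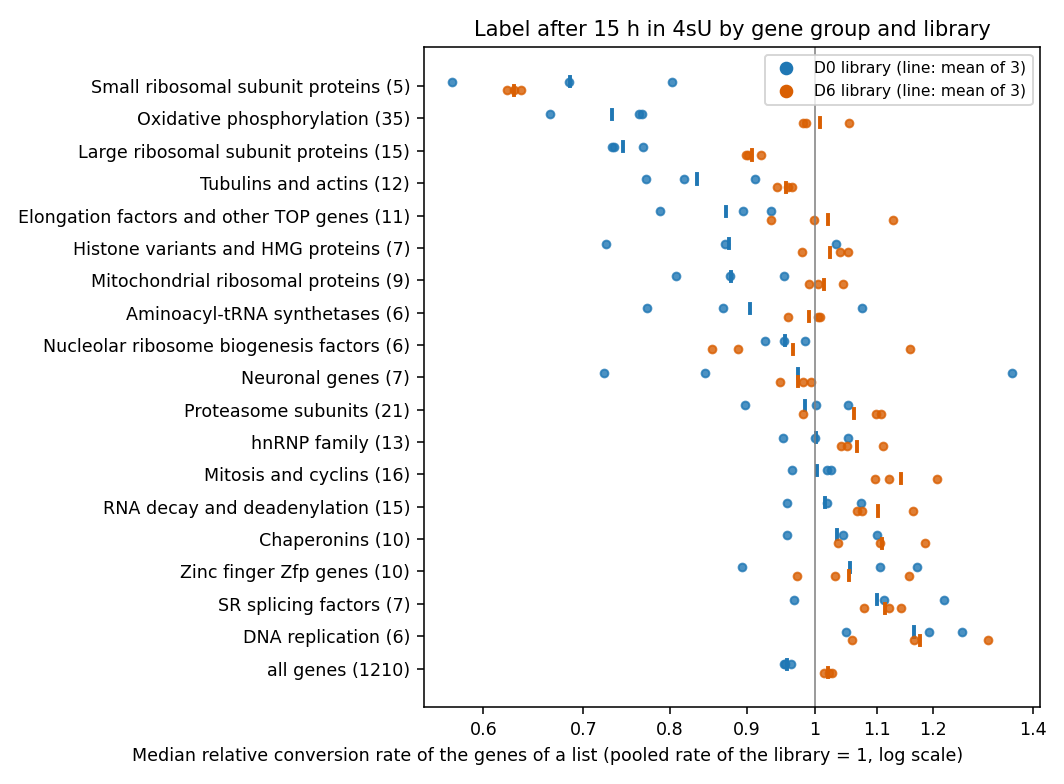
Median relative conversion rate (log scale, pooled rate of the library = 1) of the well covered genes of each list, with the number of genes in brackets. Each point is 1 library and each short line the mean of 3. Small ribosomal subunit proteins lie at 0.572, 0.684 and 0.802 at D0 and at 0.629, 0.636 and 0.623 at D6, whereas oxidative phosphorylation genes lie at 0.766, 0.665 and 0.762 at D0 and at 0.982, 1.05 and 0.986 at D6.

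Atp5j2, a subunit of the membrane part of the ATP synthase (chr5:145183706-145183838, minus strand), is given first. Its relative rate was 0.570, 0.642 and 0.545 at D0 and 0.934, 0.987 and 1.03 at D6, with every D0 library below every D6 library. The deviation at D0 was −0.77 ± 0.12 on the log2 scale (edgeR, adjusted p = 0.00234), and the difference of 0.75 ± 0.16 between the states had an adjusted p of 0.275. Its D0 call held among the well covered genes without any 1 of the 6 libraries, but over all transcripts it was lost without any 1 of the D0 libraries, and there DESeq2 called the difference. Cox7a2, a small subunit of cytochrome c oxidase (chr9:79755241-79755546, minus strand), stood at 0.516, 0.588 and 0.706 at D0 and 0.849, 1.02 and 1.1 at D6, again without overlap (adjusted p = 0.00690 at D0 and 0.324 for the difference). Atp5j2 and Cox7a2 were picked by their low D0 values, which favors such an order. Uqcrh, of the cytochrome bc1 complex, stood at 0.530, 0.491 and 0.638 at D0 and 0.8, 1.19 and 0.624 at D6, where D6 replicate 9 fell within the D0 range. Ndufb8, of complex I, had the lowest D0 mean of the 33 genes, 0.458 ± 0.255, with D0 libraries at 0.753, 0.305 and 0.317 and D6 libraries at 0.862, 0.945 and 0.617, so that replicate 25 stood apart from the other D0 libraries. The list also had members that did not share this pattern. Cox4i1 was low in both states, at 0.919, 0.511 and 0.302 at D0 and 0.611, 0.541 and 0.604 at D6, and Cyc1, cytochrome c1, was above 1 in all 6 libraries, at 1.18, 1.88 and 1.51 at D0 and 1.34, 1.49 and 1.4 at D6.

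These genes have short 3′ UTRs, and length moved with the result. Over well covered genes with a 3′ UTR of at most 200 bases the median relative rate at D0 was 0.884 ± 0.0201 (138 genes), and over those longer than 2000 bases it was 0.993 ± 0.0162 (335 genes), while at D6 both were near 1. Within the short group, 21 oxidative phosphorylation genes had a median of 0.748 ± 0.0825 at D0, 11 ribosomal protein genes had 0.736 ± 0.0438, and the 106 others had 0.929 ± 0.0172. The part of length in the result was not tested.

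The other genes under-labeled at D0 covered many functions. Gnas, the stimulatory G protein alpha subunit (chr2:174285436-174346744, plus strand, in 12 intervals), had a relative rate of 0.705, 0.508 and 0.533 at D0 and 0.765, 0.755 and 0.824 at D6 (D0 adjusted p = 0.00165, edgeR). Zfhx3, a homeobox transcription factor, was among the most even, at 0.639, 0.662 and 0.630 at D0 and 0.817, 0.885 and 0.888 at D6, with no overlap between the groups (D0 adjusted p = 0.00513). Its reads without 4sU were 321 CPM at D0 and 2895 CPM at D6. Mif, a cytokine with tautomerase activity, stood at 0.763, 0.679 and 0.584 at D0 and 0.820, 0.818 and 0.918 at D6, and Hint1, a nucleotide hydrolase, at 0.474, 0.642 and 0.711 at D0 and 0.987, 0.919 and 1.03 at D6. Ybx1, a cold shock domain protein that binds messenger RNA, stood at 0.712, 0.798 and 0.689 at D0 and 0.882, 0.982 and 1.02 at D6. In these last 3 genes every D0 library was below every D6 library, as in 12% of the 1210 genes. The genes of this paragraph were picked by their low D0 values, which favors such an order.

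Genes of the cytoskeleton were mixed. Of the 12 tubulin, actin and actin-binding genes that were well covered, 4 were under-labeled at D0 (Tuba1b, Tmsb4x, Tubb2b and Actb) and 1 at D6 (Tubb2b), where 2.73% and 0.331% of the 1210 genes were. All 3 D0 libraries were below 1 in 5 of the 12 and above 1 in 2, where 22.1% and 13.7% of the 1210 genes were. Over all transcripts tested, 1 of 21 genes of the list was under-labeled and 1 over-labeled at D0, beside 0.186% and 1.06% of transcripts. None of the 21 was called at D6. The list median was 0.834 ± 0.0719 at D0 and 0.956 ± 0.0113 at D6. Tuba1b, an alpha-tubulin, stood at 0.718, 0.561 and 0.601 at D0 and 0.676, 0.935 and 0.939 at D6, and Tmsb4x, which binds actin monomers, at 0.580, 0.871 and 0.762 at D0 and 0.969, 0.844 and 0.908 at D6. Actb, the cytoplasmic beta-actin, deviated least of all genes called, at 0.952, 0.784 and 0.859 at D0 and 1.03, 1.03 and 1.14 at D6, and carried 684755 covered T positions per library at D0. Actn4, an actin crosslinker, was the highest well covered member by its mean over all 6 libraries, at 1.18, 1.60 and 1.21 at D0 and 1.23, 1.08 and 0.815 at D6, and was not called.

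The remaining genes under-labeled at D0 were Arhgdia, Sem1, Mtch1, Atp6v1f, H2az2, Lrrc58, Ubl5, Cd24a, Lamp1, Sod1, Pomp, Chchd2 and Pkm. They include the lysosomal membrane protein Lamp1, the proton pump subunit Atp6v1f, the superoxide dismutase Sod1, the proteasome assembly factor Pomp and the glycolytic enzyme Pkm. Chchd2, a small mitochondrial protein, stood at 0.817, 0.606 and 0.628 at D0 and 0.983, 0.860 and 0.888 at D6, and Pomp at 0.571, 0.673 and 0.769 at D0 and 0.966, 1.18 and 0.938 at D6. Over all 33 genes the mean relative rate at D0 ran from 0.458 to 0.865, with a median of 0.612, and at D6 the same genes had a median of 0.870. Of the 33, 29 had a mean below 1 at D6 as well. Since the genes were picked by their D0 values, a smaller deviation at D6 is a description and no test. Their median 3′ UTR length was 306 bases, beside 1022 for all well covered genes.

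**Figure D3:**
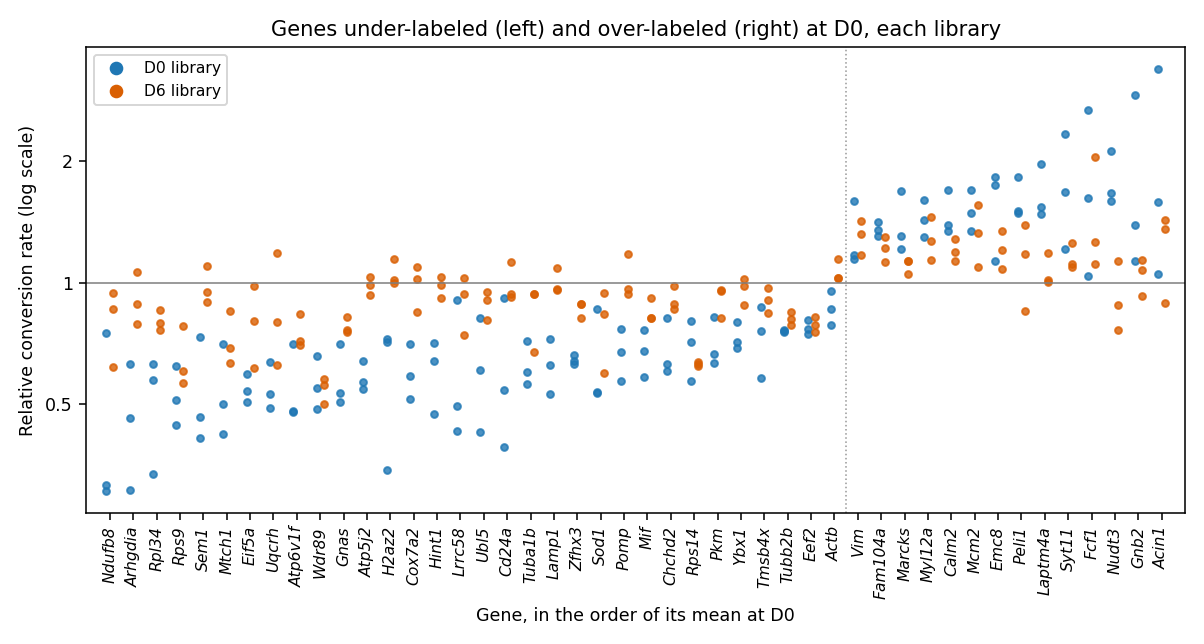
Relative conversion rate (log scale) in each of the 3 D0 and 3 D6 libraries for 32 of the 33 genes under-labeled at D0 (left of the dotted line) and the 14 over-labeled at D0 (right), in the order of their D0 mean. Replicates of Tubb2b, Zfhx3 and Eef2 lie close together, whereas those of Ndufb8, Acin1 and Gnb2 lie far apart.

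The 14 genes over-labeled at D0 had mean relative rates of 1.30 to 2.01, with a median of 1.59, and at D6 the same genes had a median of 1.21. They were picked by their high D0 values, so a smaller deviation at D6 is a description and no test. Every D6 library was below every D0 library in 3.97% of the 1210 genes. Laptm4a, a lysosomal membrane protein (chr12:8938192-8938742, plus strand), had a relative rate of 1.48, 1.54 and 1.96 at D0 and 1.18, 1.00 and 1.02 at D6, with every D0 library above every D6 library. Its deviation at D0 was 0.73 ± 0.12 (log2, edgeR adjusted p = 0.00243). Nudt3, a hydrolase of inositol pyrophosphates (chr17:27579382-27580787, minus strand), was also without overlap, at 2.12, 1.59 and 1.67 at D0 and 1.13, 0.881 and 0.764 at D6. Its difference between the states was −0.96 ± 0.25, with an adjusted p of 0.324. Syt11, a synaptotagmin, stood at 1.67, 1.21 and 2.34 at D0 and 1.25, 1.11 and 1.09 at D6, and Marcks, a substrate of protein kinase C at the membrane, at 1.30, 1.69 and 1.21 at D0 and 1.13, 1.05 and 1.13 at D6.

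Calm2, 1 of the genes for calmodulin, stood at 1.70, 1.39 and 1.34 at D0 and 1.19, 1.13 and 1.29 at D6, and Myl12a, a myosin regulatory light chain, at 1.60, 1.30 and 1.43 at D0 and 1.27, 1.14 and 1.45 at D6. Peli1, a ubiquitin ligase of innate immune signaling, stood at 1.51, 1.82 and 1.49 at D0 and 1.18, 1.39 and 0.850 at D6. Mcm2, a subunit of the replicative helicase, was the 1 member called among the 6 well covered DNA replication genes, where 1.16% of the 1210 genes were over-labeled at D0. It stood at 1.34, 1.69 and 1.49 at D0 and 1.1, 1.33 and 1.56 at D6, while Lig1, DNA ligase I, stood at 0.944, 1.26 and 0.778 at D0 and 0.834, 0.879 and 1.21 at D6. Acin1 had the highest mean, 2.01 ± 1.23, and Gnb2, a G protein beta subunit, 1.81 ± 0.962, and in both D0 replicate 26 was far above the others, at 3.39 and 2.91. Fcf1, Emc8, Fam104a and Vim complete the 14. The unlabeled rate of these genes, held at no more than 0.5% by the choice of the set, reached 0.447% in Myl12a at D0, where the pooled rate with 4sU was 1.42%.

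Other gene groups lay on both sides of the library average. Below it at D0 were the medians of 9 mitochondrial ribosomal protein genes, 0.879 ± 0.0728 beside 1.01 ± 0.0271 at D6, of 7 histone variant and HMG genes, 0.877 ± 0.154 beside 1.02 ± 0.0380, of 6 nucleolar ribosome biogenesis factors, 0.954 ± 0.0290 beside 0.966 ± 0.167, and of 6 aminoacyl-tRNA synthetases, 0.905 ± 0.155 beside 0.990 ± 0.0276. Smaller lists below it at D0 were glycolysis (2 genes, 0.754 ± 0.136), Notch, Hes and Id genes (2 genes, 0.846 ± 0.161), pluripotency factors (2 genes, 0.959 ± 0.190) and cholesterol synthesis and uptake (4 genes, 0.901 ± 0.215). Among the well covered members of these lists Pkm and H2az2 were called, both under-labeled at D0, as were 2.73% of the 1210 genes. Over all transcripts tested 2 of 68 mitochondrial ribosomal protein genes were over-labeled at D0, as were 1.06% of transcripts. Nearer to or above the average, the 16 genes of mitosis and the cyclins had medians of 1.00 ± 0.0334 at D0 and 1.14 ± 0.0578 at D6, the 7 SR splicing factors 1.1 ± 0.126 and 1.11 ± 0.0323, the 13 hnRNP genes 1.00 ± 0.0501 and 1.07 ± 0.0372, the 21 proteasome subunits 0.984 ± 0.0787 and 1.06 ± 0.0702, and the 10 chaperonin genes 1.03 ± 0.0716 and 1.11 ± 0.0748. No well covered gene named on these last 5 lists was called in either state. The proteasome list did not include Sem1, which was under-labeled at D0. Over all transcripts tested 1 of 29 proteasome genes (Psmb10, below) and 1 of 41 mitosis genes were over-labeled at D0, as were 1.06% of transcripts. By the mean log2 relative rate over all 6 libraries, Aspm, a spindle pole protein, was the highest well covered mitosis gene, at 1.23, 1.43 and 1.32 at D0 and 1.02, 1.74 and 1.28 at D6. Ube2c, a ubiquitin-conjugating enzyme of mitotic exit, was the lowest by the same mean, at 0.900, 0.664 and 0.890 at D0 and 0.785, 1.03 and 1.27 at D6. Tra2b, a splicing regulator, stood at 0.755, 0.571 and 1.22 at D0 and 1.61, 1.51 and 2.43 at D6, with every D6 library above every D0 library and an adjusted p of 0.451 for the difference (edgeR). Cks1b, a cyclin-dependent kinase subunit, stood at 0.941, 0.651 and 0.991 at D0 and 1.35, 1.72 and 1.91 at D6, again without overlap (adjusted p = 0.424). Larp1, which binds TOP messengers and which the study names, stood at 1.52, 0.814 and 0.875 at D0 and 0.913, 1.09 and 1.05 at D6. Hox genes had no transcript that reached the coverage minimum, and p53 targets no well covered gene.

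None of the 7 well covered neuronal genes was called in either state, while 2 of the 32 neuronal genes tested over all transcripts were over-labeled at D0, as were 1.06% of all transcripts. The 7 had medians of 0.974 ± 0.336 at D0, with library medians of 0.844, 1.36 and 0.723, and 0.974 ± 0.0238 at D6. Gap43, a growth cone protein, was the lowest by the mean over all 6 libraries, at 0.840, 0.738 and 0.720 at D0 and 0.615, 0.726 and 0.791 at D6, below 1 in all 6 libraries without passing the test (adjusted p = 0.105 and 0.119, edgeR), and Elavl2, a neuronal RNA-binding protein, the highest, at 1.15, 1.52 and 0.723 at D0 and 0.892, 1.16 and 0.994 at D6. Sox2, a pluripotency and neural progenitor factor, stood at 1.30, 0.827 and 0.728 at D0 and 1.05, 1.09 and 1.36 at D6.

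Over all 10771 transcripts tested, 20 were under-labeled and 114 over-labeled at D0 (edgeR, adjusted p under 0.05; 0.186% and 1.06%), 5 were under-labeled at D6 (0.0464%) and none over-labeled, and none passed for the difference. Beside these, 1133, 480 and 587 transcripts had an unadjusted p under 0.05. A transcript that did not pass is not shown to be labeled like its library, nor to be alike in both states. Here too the D0 and D6 tests shared the same estimate of spread. For the difference, DESeq2 called 77 lower and 69 higher at D6 and limma on log2 rates 1 lower, both over the 10330 transcripts with coverage in every library. With limma the D0 split turned to 103 under-labeled and 22 over-labeled, and with the median rate as reference it was 13 and 189. The 20 transcripts under-labeled at D0 belong to 12 genes, 9 of which are well covered. The other 3 are Ccdc177, Insm1 and Tle5. With an upper limit of 0.5% on the unlabeled rate, none of these D0 calls remained at either end among 9474 transcripts. Only 1 of the 20 under-labeled transcripts had an unlabeled rate over that limit, and the D0 deviation of Atp5j2, for example, was −0.77 on the log2 scale with and without it. The D0 count of 20 fell to 6 without D0 replicate 26, to 9 without D0 replicate 27, to 13 without D6 replicate 7 and to 12 without D6 replicate 8, and the count of 114 to 50, 41 and 40 without D0 replicates 25, 26 and 27. The D6 count of 5 fell to 0 without any 1 of the D0 libraries or D6 replicate 7, to 2 without D6 replicate 8 and to 1 without D6 replicate 9.

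Most of the over-labeled transcripts at D0 also showed conversions without 4sU. Of the 114 transcripts, 96 (84.2%) had an unlabeled rate over 0.5%, and 83 over 1%, where 12% of all tested transcripts were over 0.5%. Pdpk1, a kinase upstream of Akt (chr17:24073680-24079025, minus strand), had a relative rate of 3.51, 3.52 and 3.54 at D0 and 1.5, 1.63 and 1.76 at D6, and a conversion rate of 2.88% at D0 and 3.22% at D6 without 4sU, above the pooled rate of 1.42% with 4sU at D0. Nme1, a nucleoside diphosphate kinase, stood at 2.57, 2.29 and 2.83 at D0 and 1.46, 1.31 and 1.35 at D6, with 2.59% and 2.27% without 4sU. Psmb10, an immunoproteasome subunit, stood at 7.99, 7.08 and 4.45 at D0 and 2.4, 3.51 and 2.50 at D6, with 4.82% and 5.55% without 4sU. Elob, Rpl8, Sf3b5, D8Ertd738e and Cpe were also above 1 in all 3 D0 libraries, with unlabeled rates of 1.80% to 3.55%. With the unlabeled rate subtracted, the D0 deviation of Nme1 was −0.30, that of Rpl8 −1.20 and that of Elob −2.69 on the log2 scale, below rather than above the average. The part of fixed sequence differences or of other sources of conversion was not tested.

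**Figure D4:**
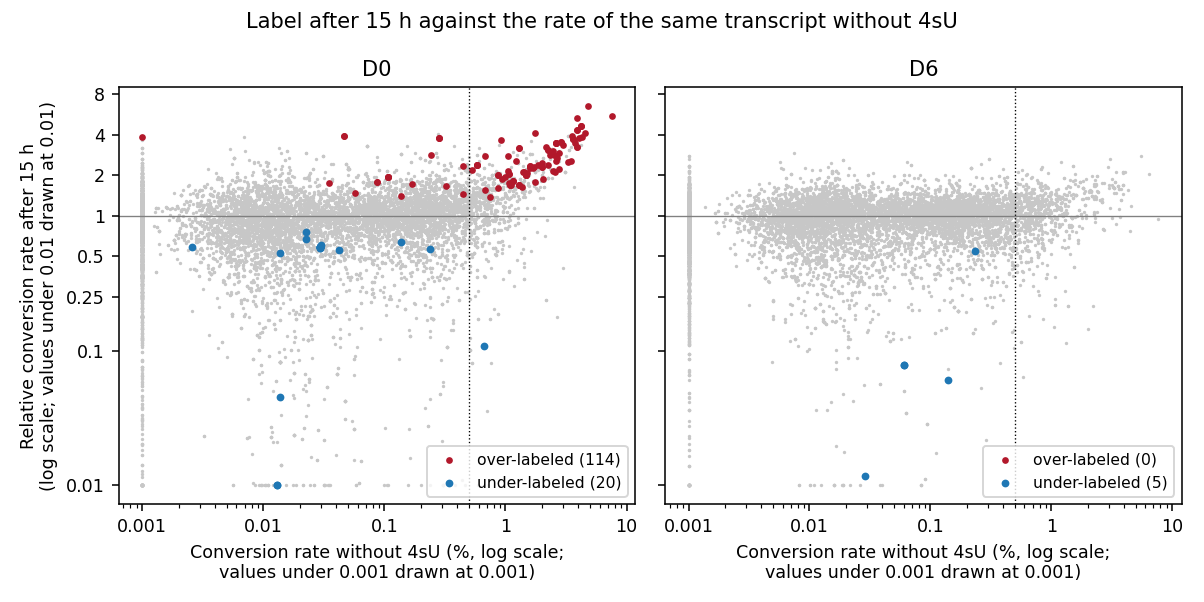
Relative conversion rate after 15 h (log scale, values under 0.01 drawn at 0.01) against the conversion rate of the same transcript without 4sU (%, log scale, values under 0.001 drawn at 0.001) for the 10771 tested transcripts at D0 and D6. The dotted line marks 0.5%, and 96 of the 114 transcripts over-labeled at D0 lie to its right.

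Outside the well covered set, 6 genes were under-labeled over all transcripts tested, 3 at D6 and 3 at D0, and they are given here with their reads, which were fewer in the state of the call but were not tested. Lhx2, a LIM homeobox transcription factor of the forebrain and eye field (chr2:38369130-38369737, plus strand), had a relative rate of 1.06, 1.18 and 1.2 at D0 and 0.133, 0.0457 and 0.0544 at D6. At D6 this was 16 conversions on 2471 covered T positions, 2 on 914 and 2 on 866, so that all 3 libraries were far below their pooled rates. Its reads without 4sU were 339 CPM at D0 and 17.6 CPM at D6. The deviation at D6 was called (adjusted p = 0.0376, edgeR), and the difference between the states, −3.70 ± 0.50 on the log2 scale, had an adjusted p of 0.0574. That difference was called with the upper limit on the unlabeled rate, with 1 transcript per cluster of overlapping 3′ UTRs and by DESeq2. The D6 call was lost when any 1 of the 6 libraries was left out.

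Cdk6, a G1 cyclin-dependent kinase (chr5:3520792-3531008, plus strand), stood at 0.829, 0.762 and 1.64 at D0 and 0.0175, 0 and 0.0175 at D6. At D6 this was 2 conversions on 2353 covered T positions, 0 on 292 and 1 on 1350, and the 0 of replicate 8 allows a relative rate of up to 0.215 from 3 counts. Its reads without 4sU were 254 CPM at D0 and 30.2 CPM at D6. Prtg, protogenin, a surface receptor of the early neural tube (chr9:72912303-72917307, plus strand), stood at 1.33, 0.956 and 1.22 at D0 and 0.0197, 0.162 and 0 at D6, with 3 conversions on 3121 covered T positions at D6, 4 on 517 and 0 on 586, the last of which allows up to 0.121. Its reads were 473 CPM at D0 and 9.01 CPM at D6. For both genes every D6 library was far below every D0 library, the D6 deviation was called (adjusted p = 0.0376 for Cdk6 and 0.0393 for Prtg, edgeR) and the difference had an adjusted p of 0.0574 and 0.0574. The difference of Cdk6 was called with the upper limit on the unlabeled rate, with that rate subtracted, with 1 transcript per cluster and by DESeq2. The D6 call of Cdk6 was lost without any 1 of the 6 libraries, and that of Prtg without any 1 other than D6 replicate 8.

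The other 3 genes were called at D0. Insm1, a zinc finger factor of neuronal progenitors (chr2:146223832-146225020, plus strand), stood at 0, 0.135 and 0 at D0 and 1.18, 1.16 and 1.80 at D6, with no conversion on 3211 and 2760 covered T positions in D0 replicates 25 and 27, which allows relative rates of up to 0.0672 and 0.0790. Its reads without 4sU were 23.8 CPM at D0 and 119 CPM at D6 (D0 deviation, adjusted p = 0.0136, edgeR). Tle5, a Groucho family corepressor, stood at 0, 0 and 0.0277 at D0 and 0.810, 0.964 and 1.33 at D6, and its reads were 44.1 CPM and 157 CPM (adjusted p = 0.0331, edgeR). Its zeros, on 2218 and 3921 covered T positions in D0 replicates 25 and 26, allow relative rates of up to 0.0973 and 0.0513. Ccdc177, a coiled-coil protein, stood at 0.0312, 0.175 and 0.118 at D0 and 1.01, 1.06 and 1.1 at D6, with reads of 124 CPM and 184 CPM (adjusted p = 0.0154), and its unlabeled rate at D0 was 0.662%, above the limit used elsewhere. The adjusted p of the difference was 0.0986 for Insm1, 0.322 for Tle5 and 0.169 for Ccdc177 (edgeR). For Ccdc177 the difference was called with the unlabeled rate subtracted (6.70 on the log2 scale) and by DESeq2 (3.17). The D0 call of Tle5 was lost without any 1 of the 6 libraries, that of Insm1 without D0 replicate 25 or 27, and that of Ccdc177 without D0 replicate 27 or D6 replicate 7 or 8.

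All tested genes were also grouped by their change in reads without 4sU. Of 67 genes whose reads were lower at D6 by a factor of 8 or more, 32.8% had a mean relative rate under 0.5 at D6 and 5.97% at D0, beside 10.3% and 13.9% of the 4482 genes within a factor of 2. Of 92 genes whose reads were higher at D6 by such a factor, 33.7% were under 0.5 at D0 and 9.78% at D6. Coverage moved with these shares, since the median gene of the first group had 1695 covered T positions at D6 and that of the second 1644 at D0, where single libraries are often at or near 0. Pooled over the genes of a group, which weights genes by coverage, the relative rate of the first group was 1.05 ± 0.0386 at D0 and 0.912 ± 0.0124 at D6, while the second group stood at 0.877 ± 0.0717 at D0 and 0.947 ± 0.0178 at D6 (SD, n = 3 libraries). For the 4482 genes within a factor of 2 the pooled D0 value was 0.996 ± 0.00311. The 991 genes lower at D6 by a factor of 2 to 4 had pooled values of 1.05 ± 0.00626 at D0 and 1.05 ± 0.00807 at D6.

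Uptake libraries, which the comparisons above did not use, were read for the same genes after 9 h of 4sU. All 3 uptake libraries of the same state were below 1 for 31 of the 33 genes under-labeled at D0 (93.9%, beside 35% of all well covered genes), and above 1 for 8 of the 14 over-labeled (57.1%, beside 21.7%). At D6 all 4 under-labeled genes were below 1 in every uptake library, beside 18.3% of all well covered genes. Tested on their own, the uptake libraries gave 20 under-labeled and 1 over-labeled gene at D0 (1.65% and 0.0826% of 1210) and 3 and none at D6 (0.248%), and no gene for the difference, with 116 at an unadjusted p under 0.05. Over the 79 genes with at least 50000 covered T positions the rank correlation between the relative rates at 15 h and at 9 h of uptake was 0.71 at D0 and 0.73 at D6, as a description over genes that share libraries and 3′ UTR sequence. Over all 1210 genes it was 0.43 and 0.34. D6 uptake replicate 53 stood apart with 1504166 reads, and the D6 values without it were 0.75 and 0.35.

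After removal of 4sU for 9 h the genes under-labeled at D0 had a median above that of all well covered genes. The pooled rate after the chase was 0.415% at D0 and 0.883% at D6, beside 0.171% and 0.166% without 4sU. The unlabeled rate was not subtracted from the chase values, and its part in them was not tested. In the D0 chase libraries the 33 genes under-labeled at D0 had a median relative rate of 1.43, and 30 of them were above 1, beside a median of 0.698 and 414 of 1210 for all well covered genes. The 14 over-labeled genes had a median of 0.873, which is also above that of all genes. Over the 1210 genes the rank correlation between the 15 h point and the chase of the same state was −0.09 at D0 and 0.04 at D6, and over the 79 genes of high coverage −0.38 and −0.36. Large ribosomal subunit genes had medians of 0.604 ± 0.0346 after 9 h of uptake, 0.744 ± 0.0200 at 15 h and 1.89 ± 0.135 after the chase at D0, and 0.642 ± 0.0481, 0.907 ± 0.0116 and 2.72 ± 0.652 at D6. Oxidative phosphorylation genes had 0.552 ± 0.0235, 0.731 ± 0.0572 and 1.59 ± 0.0197 at D0, and 0.841 ± 0.0346, 1.01 ± 0.0407 and 2.02 ± 0.177 at D6. Genes of mitosis and the cyclins had 1.14 ± 0.0438, 1.00 ± 0.0334 and 0.401 ± 0.0187 at D0, and 1.09 ± 0.147, 1.14 ± 0.0578 and 0.651 ± 0.0579 at D6, lowest after the chase in both states. The relative rate sets each transcript against its own library, so these values give an order among transcripts and not an amount of label.

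**Figure D5:**
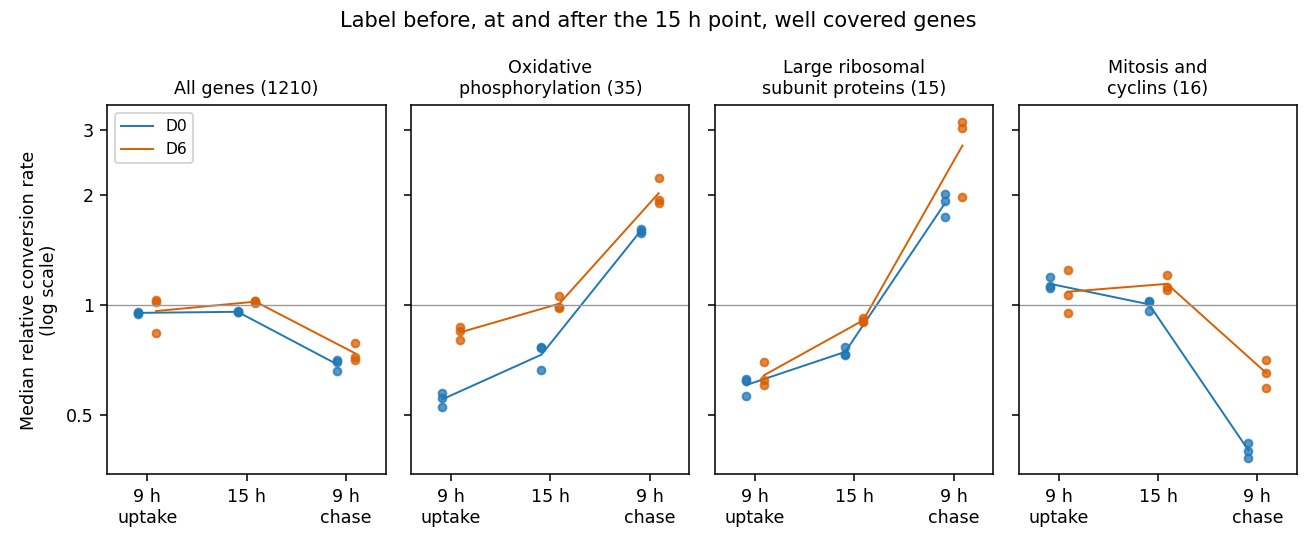
Median relative conversion rate (log scale) of all well covered genes and of 3 lists after 9 h of uptake, at the 15 h point and 9 h after removal of 4sU. Points are libraries and lines join the means of 3, and the uptake and chase libraries are separate cultures. Oxidative phosphorylation and large ribosomal subunit genes lie below 1 after uptake and above 1 after the chase in both states.

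The spread of label over the transcripts of high coverage was wider in the D0 libraries. The interquartile range of the log2 relative rate over the 2137 transcripts that averaged 10000 or more covered T positions was 0.638, 0.648 and 0.697 in the D0 libraries and 0.386, 0.450 and 0.557 in the D6 libraries, without overlap. The difference of −0.20 had p = 0.1 in a two-sided exact permutation test, the smallest that 3 against 3 libraries can give. It was −0.21 with the counts thinned to equal expected conversions, again with the smallest p that the exact test can give. Thinning evens out counting error alone, and the variation between repeat libraries, given above, was also larger at D0. Its part in the wider range was not tested. Over all 10771 tested transcripts the libraries overlapped, at 1.52, 1.32 and 1.91 at D0 and 0.676, 1.06 and 1.36 at D6, and the exact permutation test gave p = 0.2. Below 1 in all 3 libraries were 267 of the 1210 genes at D0 and 197 at D6, of which 77 were shared (28.8% of the first and 39.1% of the second). Above 1 in all 3 were 166 at D0 (13.7%) and 274 at D6 (22.6%), of which 57 were shared (34.3% and 20.8%).

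Among features that the relative rate does not use, the 242 well covered genes with the least label at D0 had a median 3′ UTR of 640.5 bases and the 242 with the most label 1285, and the pentamer ATTTA, the core of AU-rich decay elements, was found in 59.3% and 77.7% of their 3′ UTRs (68.1% of all). At D6 the same 2 ends had medians of 1021.5 and 956 bases, and 65.3% and 72% held the pentamer. The Pumilio site TGTANATA was present in 20.3% and 28.1% at D0 and in 27.6% and 23.0% at D6. Longer 3′ UTRs hold any motif more often, and both were searched on the strand of the transcript. Per kb of 3′ UTR there were 1.77 and 2.04 ATTTA at D0 and 1.70 and 1.82 at D6, and 0.273 and 0.260 Pumilio sites at D0 and 0.254 and 0.251 at D6. The rank correlation of the relative rate with the share of T in the 3′ UTR was 0.17 at D0 and 0.15 at D6, over 1210 genes. With the unlabeled rate of the same state it was 0.27 at D0 and 0.08 at D6, and the median unlabeled rate was 0.0237% in the 242 genes with the least label at D0 and 0.101% in those with the most. The part of conversions made without 4sU in the order of these genes was not tested.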

How the data were processed

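SLAM-seq libraries (3′ end sequencing) were processed by the authors with SLAMdunk 0.3.3 on mm10, with sequence variants called from the aligned reads themselves before conversions were counted. Per 3′ UTR interval they deposited the conversion rate as a fraction, reads as CPM, and counts of covered T positions, conversions and reads with and without them. The file headers name RefSeq 3′ UTRs and the study's methods GENCODE, and how reads of near-identical copies were placed is not given in the sources used here. Conversions and covered T positions were summed over the intervals of each NM transcript. Conversions were modeled with edgeR 4.0.16 (R 4.3.3; quasi-likelihood test, Benjamini-Hochberg adjustment at 0.05) with an offset of the log of covered T positions times the pooled rate of the library, over the 3 D0 and 3 D6 libraries of the 15 h point, testing each state against the pooled rate and D6 against D0. Transcripts of a gene share reads. The D0 and D6 tests share one estimate of spread. The design text calls the replicates biological. The fit was tested on simulated data, where it missed the planted changes between the states over all tested transcripts. Among the well covered genes it missed many of them.

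The rule for named genes took, among called genes with at least 10000 covered T positions in each state and an unlabeled rate of at most 0.5%, up to 8 at each end of each comparison, the lowest and highest member of each gene list, and Rpl4 and Larp1. All other genes called in the well covered set, those called over all transcripts (Lhx2, Cdk6, Prtg, Insm1, Tle5 and Ccdc177 among them), the 8 over-labeled transcripts with the smallest p, and Cks1b were chosen after their values were seen. Of the genes called, 1 is counted but not reported here. The genes and lists were chosen with earlier results of these data known. Counting limits from 0 conversions use 3 counts and cover counting error only. Sequences came from RefSeq tables (GRCm38.p6), and 3′ UTR motifs from GENCODE M21 transcripts. Alternatives were other references, coverage minimums, limits on and subtraction of the unlabeled rate, limma 3.58.1 (0.5 conversions added), DESeq2 1.42.0, reads with a conversion, 1 transcript per cluster of overlapping 3′ UTRs, and leaving out 1 library at a time. The other 23 libraries of the series were not used. Summaries used Python 3.11.15, pandas 2.3.3 and scipy 1.17.1.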

Additional observations from a re-analysis of the deposited data

How the results depend on the processing

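No paired analysis was possible because every library has a replicate number of its own. Over all tested transcripts the 20 under-labeled at D0 became 13 with the median rate as reference, 36 and 64 with coverage minimums of 3000 and 10000, 0 with the limit on the unlabeled rate, 103 with limma, 111 with the unlabeled rate subtracted, 108 with reads carrying a conversion, 33 in the well covered genes, and 6 to 24 with 1 library left out. The 114 over-labeled at D0 became 189 with the median reference, 0 with the limit, 22 with limma, 2 after subtraction, 323 with reads, 14 in the well covered genes, and 40 to 101 with 1 library left out. The 5 under-labeled at D6 became 0 and 1 with coverage minimums of 300 and 3000, 21 with limma, 2 after subtraction, 3 with reads, and 0 to 2 with 1 library left out. Over-labeled at D6 were 1 with the median reference, 8 with a coverage minimum of 10000 and 1 with 1 transcript per cluster. For the difference, lower calls were 9 with a coverage minimum of 10000, 4 with the limit, 1 with limma, 2 after subtraction, 4 with 1 transcript per cluster, 77 with DESeq2, and 0 to 2 with 1 library left out, and higher calls were 13 after subtraction and 69 with DESeq2. In the well covered genes the D0 calls became 20 lower and 22 higher with the median reference, and with 1 library left out 17 to 30 and 8 to 16. D6 calls were then 2 to 8 lower and 0 to 1 higher, and 0 to 2 genes were higher for the difference.

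Over every tested gene of a list, the median relative rate of large-subunit ribosomal genes at D0 was 0.765, and 0.852 with the median reference and 0.655 with reads. That of small-subunit genes at D0 was 0.726, and 0.809 with the median reference, 0.642 after subtraction, 0.753 with a coverage minimum of 10000, 0.648 with reads and 0.686 in the well covered genes. At D6 it was 0.835, and 0.881, 0.755, 0.730, 0.779 and 0.629 in the same order. Oxidative phosphorylation genes were at 0.717 at D0 and 0.799 with the median reference, and at 1.03 at D6 and 1.09. Elongation factors and other TOP genes were at 0.875 at D0 and 0.974 with the median reference, and at 0.944 at D6 and 1.02 with a coverage minimum of 10000 and in the well covered genes. The D0 deviation turned for Elob (−2.69), Nme1 (−0.30) and Rpl8 (−1.20) after subtraction and for Tubb2b (0.28) with reads. The cause of these changes was not tested. Of the other values of 109 named genes, 4887 kept their side of the threshold (216 of them, none called, changed sign), 177 gained and 162 lost the call. From 1000 covered T positions upward the spread between libraries was 3.82 to 7.28 times the counting error.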
